A study of Mus musculus with 4 samples.

Results

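The genes described here are 10 genes of the switch between epithelial and mesenchymal cell states: the transcription factor genes Snai1, Snai2, Twist1, Twist2, Zeb1, Zeb2 and Prrx1, and the adhesion genes Cdh1, Cdh2 and Epcam. They were chosen by name, and 13 transcript rows of the tables carry one of these symbols. They are 10 of 26994 genes in the tables. The series concerns the Evx1 locus and its antisense transcript in mouse embryonic stem cells that differentiate once the cytokine LIF is withdrawn. The 4 libraries used here come from CJ9 embryonic stem cells of strain 129S4/SvJae, labelled wild type and titled as Cas9 only, with 2 libraries at day 4 and 2 at day 6 without LIF. All 4 therefore share the line, the intact locus and Cas9, and no undifferentiated cells were analysed here. The culture text in the labels gives 2 and 6 days without LIF for day 4 replicates 1 and 2 and 4 and 6 days for day 6 replicates 1 and 2, so it departs from the titles for 3 libraries. The comparison these libraries allow is day 6 against day 4. The labels do not state whether the replicates of a day are separate cultures, so the p-values below reflect spread between libraries that may be technical.

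Epithelial cells hold to each other through E-cadherin, the product of Cdh1, and mesenchymal cells carry N-cadherin, the product of Cdh2, in its place. Snail (Snai1), Slug (Snai2), Zeb1 and Zeb2 are zinc finger repressors that bind E-box sequences and are known to repress Cdh1, and Twist1 and Twist2 are basic helix-loop-helix factors that bind E-boxes too. In the mouse embryo the switch takes place at the primitive streak, where mesoderm cells that lack Snai1 keep epithelial character. Epcam is an epithelial adhesion molecule that embryonic stem cells also carry.

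Values are FPKM, a count of fragments scaled by transcript length and library size, so genes of 1 library can be set side by side per length. From the widths of the deposited intervals, depth came to roughly 3740000 and 3630000 fragments for day 4 replicates 1 and 2, against 6500000 and 5770000 for the day 6 replicates. The day 4 libraries stood far apart: of 11716 genes tested, 52.9% differed more than 2-fold between them on the log2(FPKM + 1) scale, against 1.76% between the day 6 libraries. After a correction for the GC content of the transcript the day 4 share was 38.8% of 11220 genes. That correction also removes each library's offset from the other libraries, so effects of GC and of scaling are not separated in it. Differences between days are given on the deposited scale and after that correction. Of all 18550 genes above 0 in any library, 9.45% were lower at day 6 without overlap and 38.0% higher. Of 6 pluripotency markers 3 (Pou5f1, Sox2 and Nanog) were lower at day 6 without overlap and 2 (Zfp42 and Esrrb) higher. They summed to 598 and 491 FPKM at day 4, against 164 and 161 FPKM at day 6, most of it from Pou5f1 at day 4 (368 and 376 FPKM, against 54.9 and 42.0 FPKM). All 5 primitive streak markers were lower, with sums of 265 and 688 FPKM and 28.7 and 28.1 FPKM. In RNA from whole cultures, fewer cells of a type and less RNA per cell cannot be told apart.

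Of the 10 genes, 6 had both day 6 libraries above both at day 4: Snai2, Twist2, Zeb1, Zeb2, Prrx1 and Cdh2. None was lower without overlap, and Snai1, Twist1, Cdh1 and Epcam overlapped between the days. Among all 18550 genes above 0 in any library, 38.0% were higher without overlap and 9.45% lower, and the count of 6 of 10 is read beside that share as a description only. Prrx1 fell under the limit of a mean of 1 FPKM, so 9 of the 10 were tested. Among the 11716 genes past that limit, 41.6% were higher and 11.5% lower without overlap, and 5 of the 9 tested members were higher. With the library medians set equal those shares became 20.3% and 26.4%, and after a correction for GC 27.6% and 27.5%. On both scales 4 of the 9 members (Snai2, Twist2, Zeb1 and Cdh2) were higher and 1, Epcam, lower. The median log2 difference of the 9 was 0.82, against 0.51 for all genes tested. With library medians set equal it was 0.19 against -0.12, and after the GC correction 0.52 against -0.0034. No gene passed an adjusted threshold of 0.05 (0 of 11716 in limma, 1793 or 15.3% at an unadjusted p under 0.05). Of the members, 3 had an unadjusted limma p under 0.05, namely Snai2, Twist2 and Zeb1.

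**Figure D1:**
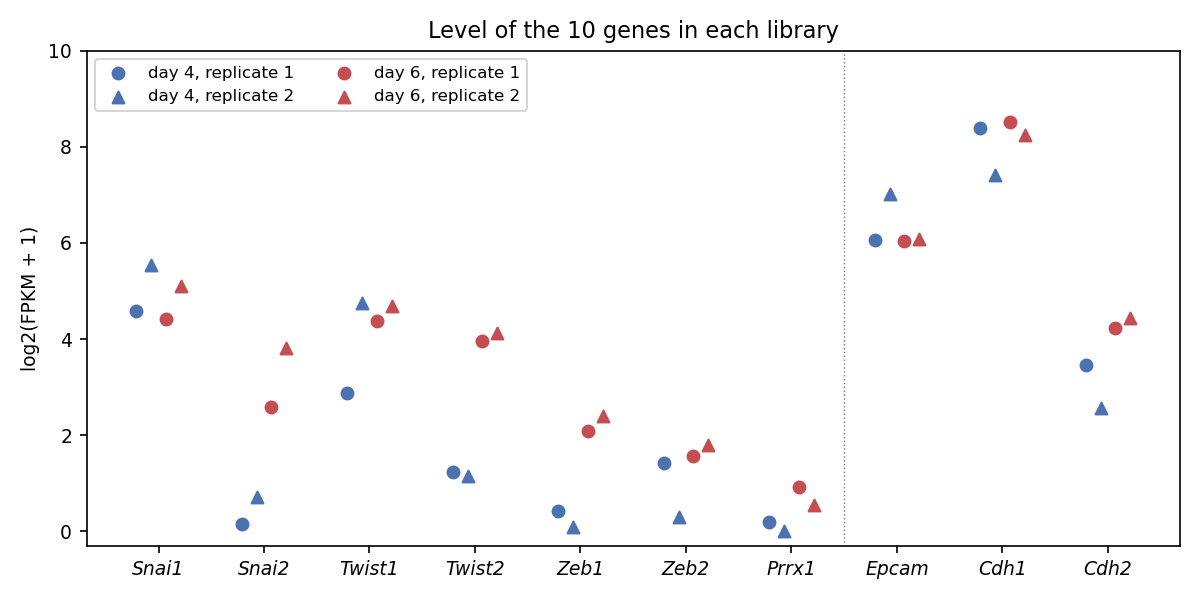
Level of each of the 10 genes in each library, as log2(FPKM + 1), with day 4 in blue, day 6 in red, circles for replicate 1 and triangles for replicate 2; each point is 1 library and the dotted line parts the factors from the adhesion genes. Both red points lie above both blue points for Snai2, Twist2, Zeb1, Zeb2, Prrx1 and Cdh2, and the blue points are far apart for Twist1, Zeb2 and Cdh1.

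Snai1 was expressed throughout and did not separate the days. Its transcript (NM_011427, mm10 chromosome 2, 167538227 to 167542811) measured 23.1 and 45.4 FPKM at day 4, against 20.3 and 33.2 FPKM at day 6. The lowest and the highest library belonged to different days, with replicate 2 above replicate 1 on both. On the log2 scale, day 6 minus day 4 came to -0.31 (standard error 0.58, limma, adjusted p = 0.810), -0.94 with library medians set equal and -0.47 after the GC correction. Leaving out day 4 replicate 2 or day 6 replicate 1 turned its sign, to 0.16 and 0.03.

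Snai2, the paralogue that encodes Slug, a factor of mesenchyme and migrating neural crest, was near the floor at day 4. The transcript (NM_011415, chromosome 16, 14705859 to 14709382) measured 0.105 FPKM in day 4 replicate 1, with a deposited interval from 0 to 0.292, and 0.642 FPKM in replicate 2, with an interval from 0.196 to 1.08. At day 6 it measured 4.99 FPKM (3.85 to 6.11) and 13.2 FPKM (10.7 to 15.3). The lower day 6 library was thus 7.78 times the higher day 4 library, while the day 6 libraries themselves lay 2.64-fold apart. The log2 difference was 2.77 with a standard error of 0.60 (limma, adjusted p = 0.267), 2.15 with medians set equal and 2.32 after the GC correction. That correction widened the gap between the day 4 libraries from 0.57 to 2.18 on the log2 scale. The standard error after it was 0.89, so the difference was less clear on that scale. The correction moves values near the floor by a curve fitted over all genes, so this gap is not one of the deposited FPKM. Set against Snai1 in the same library, Snai2 came to 0.456% and 1.41% at day 4 and to 24.6% and 39.6% at day 6.

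The Snai1 promoter is shown because it holds the E-box that Snail and Zeb proteins bind and because Snai1 was the most abundant of the 7 factors in every library. It covers the 250 bases before the RefSeq start at chr2:167537945-167538194 (GRCm38.p6, plus strand), a start upstream of that of the table's row. Capitals mark CAGGTG or its reverse complement CACCTG, searched on both strands.
Snai1: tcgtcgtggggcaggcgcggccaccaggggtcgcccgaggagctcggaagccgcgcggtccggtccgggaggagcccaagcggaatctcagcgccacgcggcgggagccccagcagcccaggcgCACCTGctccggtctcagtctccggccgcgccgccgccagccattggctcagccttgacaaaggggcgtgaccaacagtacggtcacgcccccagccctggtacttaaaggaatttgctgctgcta
The 1 match begins 126 bases before the start, in a window of 70.0% GC with 27 CG dinucleotides. Of 32851 promoter windows of this length in the RefSeq table, 17.2% hold CAGGTG or CACCTG, and 66.2% hold the wider E-box CANNTG, of which the first motif is a special case. The table had promoters for 6 of the 10 genes and none for Snai2, Zeb1, Cdh1 and Cdh2. Among those with a promoter and not printed, Twist1, Twist2 and Prrx1 held neither motif in this window.

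Twist1 and Twist2, paralogues that encode factors of the mesoderm and of connective tissue, differed in what separated the days. Twist1 (NM_011658, chromosome 12, 33957671 to 33959831) measured 6.37 and 26.0 FPKM at day 4, against 19.8 and 24.9 FPKM at day 6. Day 4 replicate 1 alone was low, and day 4 replicate 2 was above both day 6 libraries. Its log2 difference was 0.72 with a standard error of 0.76 (limma, adjusted p = 0.666), 0.09 with medians set equal and 0.52 after the GC correction. On the deposited scale it was -0.22 without day 4 replicate 1 and 1.65 without day 4 replicate 2. The 4.08-fold gap between the day 4 libraries came to 1.87 on the log2 scale and to 0.71 after the GC correction, for a gene whose transcripts have 59.3% GC.

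Twist2 (NM_007855, chromosome 1, 91801477 to 91848027) measured 1.35 and 1.205 FPKM at day 4, against 14.6 and 16.6 FPKM at day 6. It was the member on which the libraries of each day lay closest beside the gap between the days: the lower day 6 value was 10.8 times the higher day 4 value, and replicates differed 0.890-fold and 1.13-fold. Day 6 minus day 4 came to 2.86 with a standard error of 0.41 (limma, adjusted p = 0.267). That was the largest of the 9 tested members with a pseudocount of 1 FPKM, but with 0.1 Snai2 (4.396) and Zeb1 (3.80) were above Twist2 (3.51). It was 2.23 with medians set equal and 2.35 after the GC correction. As a share of Twist1 in the same library, Twist2 measured 21.3% and 4.63% at day 4 and 73.9% and 66.6% at day 6.

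Zeb1, a zinc finger and homeodomain repressor, was under 1 FPKM in both day 4 libraries. Its transcript (NM_011546, chromosome 18, 5591860 to 5775468) measured 0.346 and 0.0700 FPKM at day 4, against 3.26 and 4.28 FPKM at day 6. The deposited intervals of the day 4 libraries reached at most 0.539 FPKM and those of the day 6 libraries began at 2.77 FPKM, so they did not touch. On the log2 scale the difference was 1.98 with a standard error of 0.38 (limma, adjusted p = 0.267), 1.35 with medians set equal and 1.27 after the GC correction. That correction turned the gap of day 4 replicate 2 minus replicate 1 from -0.33 to 0.77.

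Zeb2, its paralogue, was low in every library and less clear. Summed over its 2 rows it measured 1.68 and 0.226 FPKM at day 4, against 1.97 and 2.45 FPKM at day 6. Day 6 replicate 1 was only 1.17 times day 4 replicate 1, and the log2 difference was 0.82 with a standard error of 0.52 (limma, adjusted p = 0.485). With medians set equal it was 0.19, after the GC correction 0.08 (standard error 0.31) and after quantile normalization 0.03. In all of these the days overlapped. Zeb1 came to 20.6% and 31.0% of Zeb2 at day 4 and to 166% and 175% at day 6, so that Zeb2 was the more abundant of the pair in both day 4 libraries and Zeb1 in both day 6 libraries.

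The 2 Zeb2 rows did not run together. NM_001289521, which starts at position 45110277 of chromosome 2 on the minus strand, measured 1.68, 0.226, 1.97 and 1.10 FPKM in day 4 replicates 1 and 2 and day 6 replicates 1 and 2. NM_015753, which starts upstream at 45113279 and ends at the same position, was under 0.001 FPKM in the first 3 of these libraries and measured 1.35 FPKM (1.05 to 1.66) in day 6 replicate 2, where it made up 55.1% of the Zeb2 signal. With the more abundant row in place of the sum, the log2 difference was 0.46 and the days overlapped. The upstream start lies under the antisense gene Zeb2os, which RefSeq places at 45111138 to 45114087. A row that ends 3 bases short of that span and carries no symbol in the name tables (NM_001177394) measured 0.967 and 0.604 FPKM at day 6 and under 0.001 FPKM at day 4. Another row without a symbol that ends at the same base (NM_001177395) measured 0.184 FPKM in day 4 replicate 1. It was listed at 0 in day 4 replicate 2 and was under 0.001 FPKM at day 6. The sources used here do not say whether the authors' counting used strand, so signal over the stretch shared by Zeb2 and Zeb2os cannot be assigned to one of them.

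The 250 bases before each of these 2 Zeb2 starts are shown because the rows differ in where transcription begins (GRCm38.p6, minus strand, chr2:45110278-45110527 and chr2:45113280-45113529). Neither holds CANNTG, which covers the narrower motif, so no letters are in capitals, and this says only that the letters are not in these windows.
Zeb2 start of NM_001289521: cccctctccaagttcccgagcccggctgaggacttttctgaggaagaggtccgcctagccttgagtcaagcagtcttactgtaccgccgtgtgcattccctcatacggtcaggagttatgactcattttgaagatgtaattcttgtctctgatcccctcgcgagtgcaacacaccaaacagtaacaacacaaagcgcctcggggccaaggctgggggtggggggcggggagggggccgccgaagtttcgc
Zeb2 start of NM_015753: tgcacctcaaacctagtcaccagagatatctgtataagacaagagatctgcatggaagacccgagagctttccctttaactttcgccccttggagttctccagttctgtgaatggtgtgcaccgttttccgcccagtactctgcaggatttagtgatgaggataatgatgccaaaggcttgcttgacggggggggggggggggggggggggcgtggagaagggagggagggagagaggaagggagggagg
The windows have 57.6% and 55.6% GC and 14 and 6 CG dinucleotides. The second holds a long run of G, followed by a stretch rich in G and A up to the start.

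Prrx1, a homeobox gene of limb and craniofacial mesenchyme, was the least abundant member over the 4 libraries and was not tested. Summed over 3 rows (chromosome 1, 163245119 to 163313650) it measured 0.149 FPKM in day 4 replicate 1, was listed at 0 in day 4 replicate 2, and measured 0.887 and 0.456 FPKM at day 6. One row, NM_001025570, held most of it, with 0.620 and 0.275 FPKM at day 6. NM_175686 measured 0.266 and 0.181 FPKM at day 6, with intervals that began at 0.105 and 0.0479, and was under 0.001 FPKM at day 4. NM_011127 stayed under 0.001 FPKM in all 4 libraries.

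**Figure D2:**
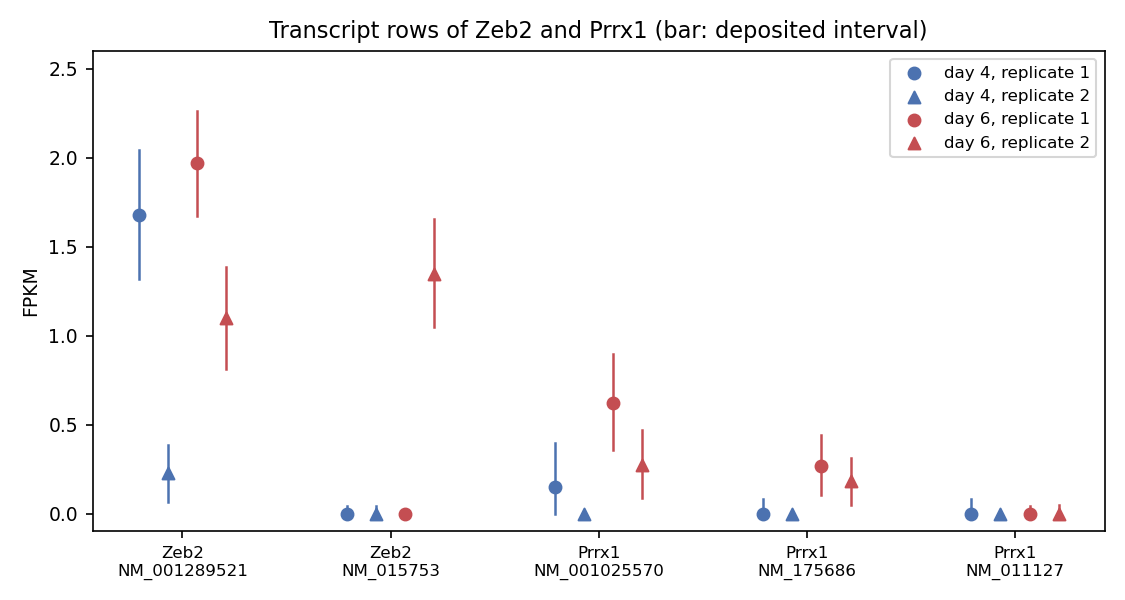
FPKM of each transcript row of Zeb2 and Prrx1 in each library, with the deposited interval as a bar, day 4 in blue, day 6 in red, circles for replicate 1 and triangles for replicate 2. Zeb2 NM_015753 is above the floor in day 6 replicate 2 only, at 1.35 FPKM, and no Prrx1 row reaches 1 FPKM.

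As a sum, the 7 factors came to 33.1 and 73.6 FPKM at day 4 and to 65.8 and 94.9 FPKM at day 6, so the days overlapped in the total. Their make-up differed. Snai1 and Twist1 together held 89.0% and 97.1% of the sum at day 4 and 60.9% and 61.1% at day 6. Snai2 held 0.318% and 0.872% at day 4 and 7.58% and 13.9% at day 6. The share of Twist2 went from 4.09% and 1.64% to 22.2% and 17.4%, and that of Zeb1 from 1.05% and 0.0952% to 4.95% and 4.50%. Ranked among the genes tested, Snai1 was above 77.2% and 87.5% of them at day 4 and 69.6% and 80.9% at day 6, whereas Twist2 was above 12.4% and 24.3% at day 4 and 60.5% and 64.9% at day 6.

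Cdh1 was the most abundant member in every library, at 336 and 169 FPKM at day 4, against 365 and 304 FPKM at day 6 (NM_009864, chromosome 8, 106603368 to 106670246). It was above 96.5 to 98.4% of the genes tested in each library. Day 4 replicate 2 was low and the other 3 libraries lay near each other. The log2 difference was 0.48 with a standard error of 0.58 (limma, adjusted p = 0.701), and its sign turned to -0.15 with medians set equal and -0.16 after the GC correction. Both day 6 values lie just above their own deposited intervals (347 to 363 and 289 to 303 FPKM), as do those of a few other rows: 1.73 to 2.70% of the rows above 0 in a library lie outside their own interval.

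Cdh2 (NM_007664, chromosome 18, 16588877 to 16809049) measured 9.93 and 4.94 FPKM at day 4, against 17.8 and 20.6 FPKM at day 6. Both day 6 libraries were above both day 4 libraries, and the deposited intervals were apart. The lower day 6 value was 1.79 times the higher day 4 value. Its log2 difference was 1.32 with a standard error of 0.51 (limma, adjusted p = 0.336), 0.69 with medians set equal and 0.71 after the GC correction. The day 4 libraries differed by the same factor in both cadherins, 0.502 for Cdh1 and 0.497 for Cdh2 (replicate 2 over replicate 1). The ratio of Cdh2 to Cdh1 was therefore 2.96% and 2.93% at day 4, and it was 4.88% and 6.76% at day 6. As log2(Cdh2 + 1) minus log2(Cdh1 + 1), the balance measured -4.89 ± 0.0769 at day 4 and -4.05 ± 0.324 at day 6 (SD, n = 2). The difference of 0.84 had an exact two-sided permutation p of 0.3333, the smallest that 2 libraries against 2 can give. It kept its sign without any 1 library (0.61 to 1.07) and was 0.26 after quantile normalization, so its size depended on the scaling. The balance was not computed after the GC correction. On that scale day 4 replicate 2 minus replicate 1 came to -0.81 for Cdh1 and 0.55 for Cdh2, in log2. The closeness of the day 4 ratios therefore did not carry over to the GC-corrected values. E-cadherin transcripts still exceeded N-cadherin transcripts per length in all 4 libraries.

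Epcam (NM_008532, chromosome 17, 87635979 to 87651127) measured 65.3 and 128 FPKM at day 4, against 65.3 and 67.2 FPKM at day 6. Day 4 replicate 2 alone was high, and the other 3 libraries were nearly equal. Day 6 minus day 4 came to -0.46 with a standard error of 0.54 (limma, adjusted p = 0.696), -1.09 with medians set equal and -0.82 after the GC correction, and in both of these the days no longer overlapped. Without day 4 replicate 2 it was 0.02. Relative to Cdh1, Epcam came to 19.4% and 75.7% at day 4 and 17.9% and 22.1% at day 6, with day 4 replicate 2 again standing apart.

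The Epcam promoter is the one with the most E-boxes among the members' promoters in the RefSeq table and is shown for that reason (250 bases before the start, chr17:87635729-87635978, GRCm38.p6, plus strand). Capitals mark CAGGTG or CACCTG.
Epcam: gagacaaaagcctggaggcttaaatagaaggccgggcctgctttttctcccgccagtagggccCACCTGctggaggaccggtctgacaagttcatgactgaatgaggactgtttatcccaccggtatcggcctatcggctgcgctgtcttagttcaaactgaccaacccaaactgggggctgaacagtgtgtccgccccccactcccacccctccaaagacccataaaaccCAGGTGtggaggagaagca
Its 2 matches begin 187 and 19 bases before the start, 1 in each orientation, and 2.06% of all promoter windows hold 2 or more. A match is a description of the sequence and no evidence of binding in these cells.

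**Figure D3:**
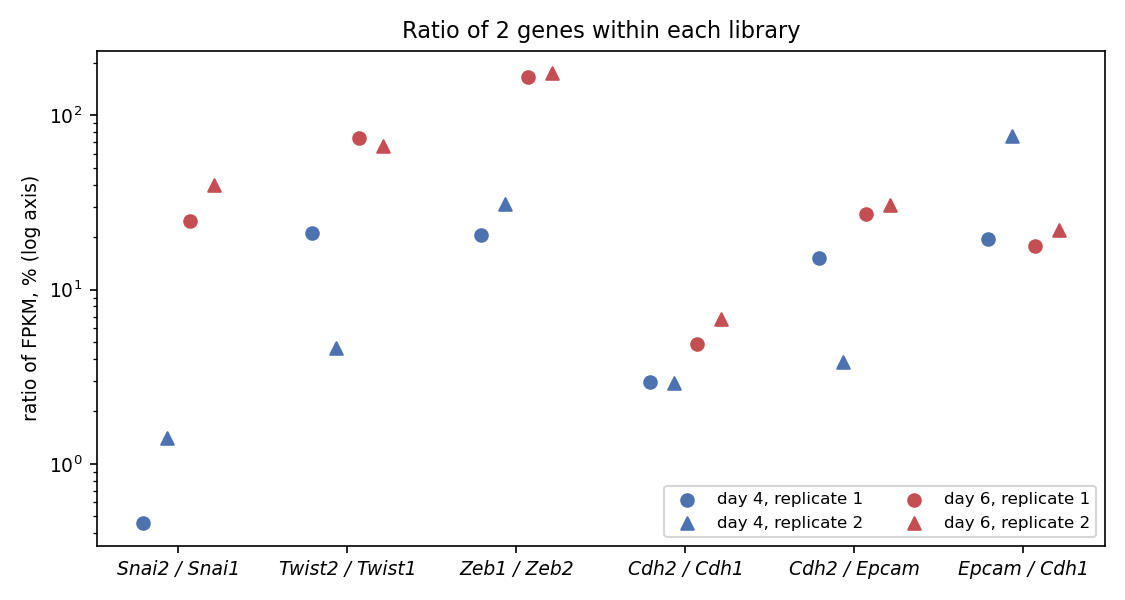
Ratio of the FPKM of 2 genes within each library, in percent on a log axis, with day 4 in blue, day 6 in red, circles for replicate 1 and triangles for replicate 2. Both day 6 libraries lie above both day 4 libraries for 5 of the 6 ratios, Snai2 to Snai1 furthest (0.456% and 1.41% against 24.6% and 39.6%), and the days overlap for Epcam to Cdh1.

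With 1 day 4 library left out, the spread of the lone one is taken from the day 6 pair, and the adjusted limma p of several members passed. Snai2, Twist2, Zeb1 and Cdh2 passed without either day 4 library, higher at day 6 both times. Cdh1, Zeb2 and Epcam also passed without day 4 replicate 1, and Twist1 without day 4 replicate 2. These fits called 66.9% of all genes tested without day 4 replicate 1 and 51.9% without day 4 replicate 2, so 7 and 5 calls among 9 members are near the background. Without day 6 replicate 1 or 2 no gene passed the adjusted limma threshold, and 283 and 257 had an unadjusted p under 0.05.

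**Figure D4:**
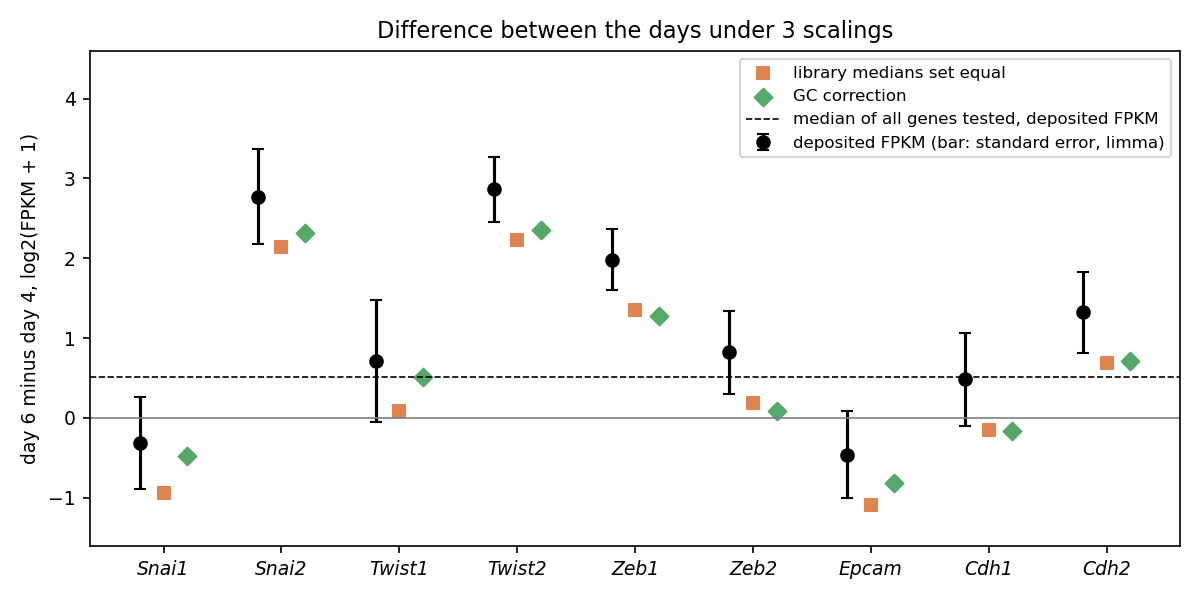
Difference of day 6 minus day 4 in log2(FPKM + 1) for the 9 tested members, on the deposited scale (black, bar: limma standard error), with library medians set equal (orange squares) and after a GC correction (green diamonds). The dashed line is the median of all genes tested on the deposited scale, 0.51. Medians of all genes on the orange and green scales, not drawn, were -0.12 and -0.0034. Snai2, Twist2, Zeb1 and Cdh2 lie above the dashed line on all 3 scales, and Cdh1 changes sign between the scales.

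Other genes of the pathway were taken from lists, and none of their members passed (limma, adjusted over all genes; smallest adjusted p = 0.267). The shares to set beside the counts are 41.6% higher and 11.5% lower without overlap among all genes tested, and the median to set beside theirs is 0.51. With library medians set equal these become 20.3%, 26.4% and -0.12. After the GC correction they become 27.6%, 27.5% and -0.0034. Other transcription factors of the switch had 8 tested members of 11, of which 2 were higher and 1 lower without overlap, with a median of 0.34. Under both other scalings 2 were higher and 2 lower. The median changed sign, to -0.28 in each, as did that of all genes. Prrx2, the paralogue of Prrx1, measured 1.21 and 2.87 FPKM at day 4, against 13.04 and 18.7 FPKM at day 6. Tcf12, which encodes an E protein that pairs with Twist factors, measured 10.4 and 3.05 FPKM and 16.3 and 17.9 FPKM. Gsc, a homeobox gene of the anterior streak, was on the lower side, at 1.73 and 8.41 FPKM and 0.693 and 1.13 FPKM.

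The genes of the proteins that Snail and Zeb factors recruit, or that control Snail stability, showed no common direction. Of 12 corepressor genes, 2 were higher and 3 lower without overlap, with a median of 0.25. With library medians set equal 2 were higher and 4 lower (median -0.38), and after the GC correction 1 and 4 (median -0.27). Kdm1a, the histone demethylase that Snail binds, measured 29.8 and 28.6 FPKM at day 4, against 55.2 and 56.4 FPKM at day 6. Suz12, a Polycomb subunit, measured 18.6 and 13.7 FPKM and 5.81 and 4.58 FPKM. Limd1, which encodes a LIM domain protein of the Ajuba family, measured 6.12 and 4.30 FPKM and 13.6 and 11.7 FPKM. Of 7 genes of Snail turnover, 3 were higher and 1 lower, with a median of 0.65. With library medians set equal 1 was higher and 1 lower (median 0.03), and after the GC correction none was higher and 1 lower (median -0.05). Btrc, which encodes the ubiquitin ligase subunit beta-TrCP, measured 3.01 and 3.55 FPKM at day 4, against 5.20 and 6.67 FPKM at day 6, and the kinase gene Csnk1a1 35.1 and 24.6 FPKM and 48.9 and 52.4 FPKM. The lower one was Fbxl14, which encodes a ubiquitin ligase subunit for Snail, at 16.7 and 36.05 FPKM and 11.2 and 11.8 FPKM.

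TGF-beta signalling, a known inducer of the Snail and Zeb genes, had 5 of 11 members higher and none lower without overlap, with a median of 0.60, near that of all genes. With library medians set equal 3 were higher and 2 lower, and after the GC correction 4 and 4. Its receptor-regulated mediator Smad3 measured 3.13 and 2.29 FPKM at day 4, against 19.0 and 21.2 FPKM at day 6. Tgfbr3, the coreceptor betaglycan, measured 0.862 and 1.34 FPKM and 6.505 and 7.14 FPKM. Tgfbr2, the receptor that binds the ligand, measured 1.67 and 1.17 FPKM and 5.63 and 4.26 FPKM.

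Among the partners of E-cadherin at the adherens junction, 3 of 9 were higher and 1 lower without overlap, with a median of 0.42. With library medians set equal 1 was higher and 4 lower, with a median of -0.21. All genes tested turned too, to 20.3% higher and 26.4% lower with a median of -0.12. After the GC correction 1 was higher and 3 lower, with a median of -0.31, beside 27.6%, 27.5% and -0.0034. Ctnnb1, which encodes beta-catenin, measured 112 and 37.7 FPKM at day 4, against 194 and 184 FPKM at day 6. Ctnna1, alpha-catenin, measured 198 and 146 FPKM and 221 and 236 FPKM. The 1 lower partner was Nectin1, which encodes a nectin of cell contacts, at 9.09 and 16.1 FPKM at day 4, against 5.44 and 6.76 FPKM at day 6. Of the other classical cadherins, 5 of 8 were tested and 4 were higher without overlap, with a median of 1.18. Under either of those scalings 2 were higher and none lower. Cdh11, a cadherin of mesenchyme, measured 4.48 and 2.29 FPKM at day 4, against 15.1 and 29.4 FPKM at day 6. Cdh5, the endothelial cadherin, measured 0.613 FPKM in day 4 replicate 1, was listed at 0 in replicate 2, and measured 2.87 and 9.64 FPKM at day 6. Cdh3, which encodes P-cadherin of epithelia, measured 6.96 and 13.3 FPKM and 19.4 and 27.5 FPKM.

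On the deposited scale, epithelial and mesenchymal genes outside the 10 were both higher more often than lower without overlap. All genes tested leaned the same way (41.6% higher and 11.5% lower). With library medians set equal 5 of the 19 epithelial genes were higher and 2 lower, beside 20.3% and 26.4% of all genes tested. After the GC correction 9 were higher and 4 lower, beside 27.6% and 27.5%. For the 19 mesenchymal genes both scalings gave 11 higher and 1 lower. Of 19 tested epithelial regulators and surface genes, 11 were higher and 2 lower without overlap, with a median of 0.85. The 2 lower were Ovol2 (6.69 and 12.2 FPKM, against 4.84 and 4.05 FPKM) and Rab25 (3.46 and 3.75 FPKM, against 3.45 and 2.81 FPKM). Spint1, a protease inhibitor of epithelia, measured 17.0 and 19.9 FPKM at day 4, against 136 and 98.7 FPKM at day 6, and Prss8, a membrane protease of epithelia, 12.7 and 22.8 FPKM and 88.8 and 80.4 FPKM. Dsc2, a desmosomal cadherin, measured 3.67 and 0.0465 FPKM and 16.2 and 15.1 FPKM. Of 19 tested mesenchymal genes, 12 were higher and none lower without overlap, with a median of 1.52. The tested genes that overlapped went both ways. Their log2 difference was -0.21 for Vim, -0.45 for Itga5 and for S100a4, and -1.73 for Tagln. For Thy1, Itgb1 and Cd44 it was 0.28, 0.84 and 1.04. The 3 named by their p were fibrillar collagen chains. Col1a1 measured 6.16 and 5.71 FPKM at day 4, against 58.4 and 127 FPKM at day 6, and Col3a1 0.760 and 1.10 FPKM and 34.1 and 43.6 FPKM. Col1a2 measured 0.941 and 0.198 FPKM and 23.7 and 60.6 FPKM.

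**Figure D5:**
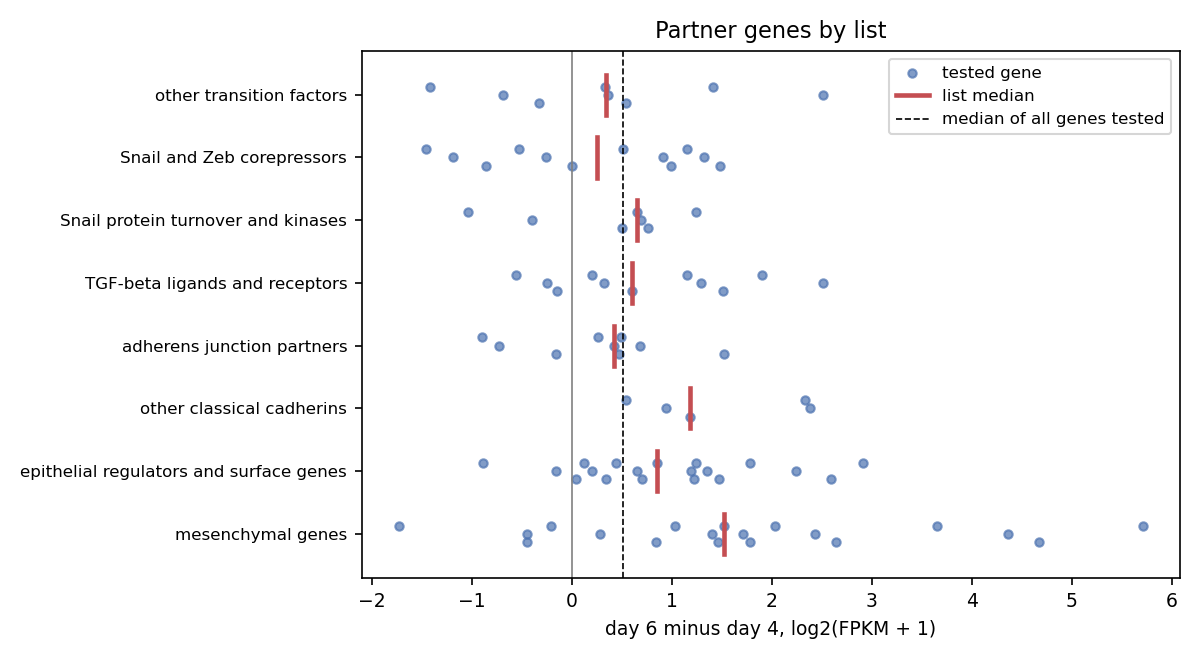
Difference of day 6 minus day 4 in log2(FPKM + 1) for each tested gene of 8 lists of partner genes (blue points), with the list median (red) and the median of all genes tested (dashed, 0.51). The medians of the mesenchymal list (1.52) and of the other classical cadherins (1.18) lie furthest to the right, and no gene passed the adjusted threshold.

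Markers of other cell types moved with the day, and their part in the member values was not tested. Beside their counts stand the shares among all 18550 genes above 0 in any library, 38.0% higher and 9.45% lower without overlap. The 5 markers of endothelium and blood, Cdh5 among them, summed to 4.20 and 0.934 FPKM at day 4, against 188 and 731 FPKM at day 6, with 5 of 5 higher without overlap. Hba-x, an embryonic globin gene, was listed at 0 in both day 4 libraries, as was Hbb-bh1, and measured 107 and 456 FPKM at day 6. The summed level of 7 fibroblast markers was 9.84 and 8.39 FPKM at day 4, against 142 and 271 FPKM at day 6, with 6 of 7 higher without overlap, and Postn, Dcn and Lum at 0 in both day 4 libraries. Col1a1, Col1a2 and Col3a1 are among them and among the mesenchymal genes above. The 7 endoderm markers summed to 10.8 and 17.3 FPKM and 44.5 and 66.8 FPKM, with 5 of 7 higher, Afp at 0 in all 4 libraries and Ttr at 0 at day 4. The 5 trophoblast markers summed to 42.0 and 97.3 FPKM and 226 and 235 FPKM, with 4 of 5 higher and Elf5 and Plac1 at 0 at day 4. Krt7 held most of this, at 25.7 and 58.1 FPKM and 146 and 129 FPKM. The epithelia of endoderm and trophoblast are known to carry Cdh1 and Epcam. The 5 markers of cardiac and lateral mesoderm summed to 83.0 and 50.8 FPKM and 216 and 407 FPKM, with 3 of 5 higher. The 4 neural crest markers, a population known for Snai2, summed to 11.4 and 27.5 FPKM and 14.6 and 11.7 FPKM, with 1 higher and 2 lower. The 4 neural markers, a population known for Cdh2, summed to 148 and 95.6 FPKM at day 4, against 31.2 and 12.9 FPKM at day 6. Of them 2 were lower and none higher. Nes made up most of the day 4 sums, at 140 and 87.6 FPKM, against 14.3 and 5.76 FPKM at day 6.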

How the data were processed

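Per the labels' protocols, poly(A) RNA was made into 4 stranded TruSeq libraries. The submitters' processing notes name CASAVA, TopHat2 (version 2.0.11) and mm10; for the quantifier, annotation release and use of strand the sources used here give nothing. The authors deposited 1 table of 35656 transcript rows per library, with FPKM, a lower and upper FPKM bound, and coverage as an unscaled signal, which was not used for any value printed. There are no counts, so depth was estimated from the bounds, taken as 2 Poisson standard deviations each side. The bounds were thus read as counting error, which leaves out spread between libraries. The sources used here do not say which errors they cover.

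Rows were named by transcript ID from RefSeq (GRCm38.p6) and GENCODE M21 tables (95.5% of rows), and FPKM summed per symbol. Day 6 was compared with day 4 on log2(FPKM + 1), a pseudocount of 1 FPKM that understates changes of low genes, over genes whose mean reached 1 FPKM, by limma 3.58.1 under R 4.3.3 (empirical Bayes with trend, two-sided, Benjamini-Hochberg). The step was tested on simulated data. At this number of libraries it missed every changed gene at the smaller sizes of change tried and recovered most of them only at the largest. The absence of calls therefore does not show that genes did not change. Promoter sequences are RefSeq's. Alternatives were another pseudocount, no filter, equal medians, quantile normalization, a GC correction, the most abundant row, no trend, a replicate block and leaving out each library. The members and lists were chosen with earlier results of these data known. Named genes are the 10 members and, of each list, up to 3 with no overlap and the smallest p. More genes of the epithelial and mesenchymal lists are named to show those that were lower or overlapped.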

Additional observations from a re-analysis of the deposited data

How the results depend on the processing

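With all 4 libraries kept, 78 of 81 recomputed member differences kept their sign and none passed the threshold. The 3 that turned were Cdh1 with library medians set equal (-0.15) and after a GC correction without or with a replicate block (-0.16 for each). Much of this count was fixed in advance. A replicate block, no trend and no filter return the same difference for every tested member, and the most abundant row does so for all but Zeb2. The GC correction also gives the same differences with and without a block. Leaving out 1 library moved Snai1 from -0.78 to 0.16, Twist1 from -0.22 to 1.65, Cdh1 from -0.0128 to 0.98 and Epcam from -0.94 to 0.0197. The number of genes called, 0 in limma, ranged from 0 to 7837 with 1 library left out and was 67 with a replicate block (54 higher, 13 lower, no member among them). No label ties the shared numbers to a culture, and same-numbered libraries' deviations correlated at -0.0904 over genes. Tested members lower at day 6 without overlap, 0 on the deposited scale, numbered 1 (Epcam) with equal medians, quantile normalization, and a GC correction without or with a replicate block, and 0 to 3 with 1 library left out. Levels under 1 FPKM rest on few fragments, more so at day 4.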
